A study of Rattus norvegicus with 6 samples.

Results

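The mevalonate pathway to squalene was examined through the 9 enzymes Acat2, Hmgcs1, Mvk, Pmvk, Mvd, Idi1, Fdps, Fdft1 and Sqle, which were chosen by gene symbol from a table of 18930 genes. Of the 9, 8 had a row and all 8 passed the filter on low counts. No row carried the symbol Fdps, so the level of that gene was not analysed here. NRK-52E, an established epithelial cell line from rat kidney, was labelled WT in all samples and was either kept as Control, described by the study as vehicle-treated (3 samples), or exposed for 24 h to STZ at 10 mM (3 samples). STZ, streptozotocin, is a sugar-linked nitrosourea that alkylates DNA. The labels do not say whether the 3 samples of a group came from separate cultures. The errors below therefore rest on the spread between these samples, which may be technical.

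The pathway builds cholesterol and other isoprenoids from acetyl-CoA. Units of acetyl-CoA are joined to HMG-CoA, which is reduced to mevalonate, and mevalonate is phosphorylated and decarboxylated to the isoprene unit isopentenyl diphosphate. Isoprene units are joined to farnesyl diphosphate, from which squalene is made for sterols, while other branches feed ubiquinone, dolichol and the lipid anchors of proteins. In most cells these genes are controlled together by the SREBP transcription factors, which are released from the endoplasmic reticulum when sterols run low.

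Since the genes had been chosen with the difference between STZ and Control known, their differences are given as a description. All 8 enzymes measured were lower in STZ-treated cells. The largest difference was that of Mvd, whose fitted level in STZ was 32.0% of Control, and the smallest, not separable from that of Fdft1, was that of Pmvk, at 73.9%. Summed over the 8 enzymes, the level was 1591, 1652 and 1666 CPM (read counts set to a library of fixed size and scaled by edgeR's TMM method) in Control replicates 1, 2 and 3 and 933, 924 and 894 CPM in STZ replicates 1, 2 and 3. The STZ mean of 917 ± 20.2 CPM was 56.0% of the Control mean of 1636 ± 40.2 CPM (SD, n = 3 each). In these bulk samples, fewer cells expressing an enzyme and less RNA of it per cell cannot be told apart.

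Promoter stretches are shown for 3 of the 4 enzymes that lay past the fold-change threshold of 1 on the log2 scale, because their upstream sequence can be set beside their levels. That of Acat2, the other enzyme past it, held no match to the letters marked below and is not shown. The stretches were taken from RefSeq for the build GRCr8, in which 6 of the 9 enzymes had an entry (Acat2, Hmgcs1, Mvk, Mvd, Idi1 and Fdps). They end at the base before the annotated start. Capitals mark CCAAT or its reverse complement ATTGG, the letters bound by the factor NF-Y, which commonly works beside SREBP. The Mvk stretch of 250 bases is at chr12:47819504-47819753 (minus strand), that of Hmgcs1, also of 250 bases, at chr2:53382054-53382303 (plus strand), and that of Mvd, of 150 bases, at chr19:67414975-67415124 (minus strand).
Mvk: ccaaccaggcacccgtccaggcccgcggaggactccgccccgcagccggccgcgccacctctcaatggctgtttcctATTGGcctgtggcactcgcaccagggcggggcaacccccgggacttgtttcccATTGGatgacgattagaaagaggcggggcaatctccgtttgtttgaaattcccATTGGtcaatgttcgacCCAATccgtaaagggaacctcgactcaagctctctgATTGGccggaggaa
Hmgcs1: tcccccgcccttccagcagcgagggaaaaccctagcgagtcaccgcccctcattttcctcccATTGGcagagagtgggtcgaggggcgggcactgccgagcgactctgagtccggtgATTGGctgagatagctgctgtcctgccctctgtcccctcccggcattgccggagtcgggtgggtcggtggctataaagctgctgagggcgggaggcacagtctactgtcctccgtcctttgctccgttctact
Mvd: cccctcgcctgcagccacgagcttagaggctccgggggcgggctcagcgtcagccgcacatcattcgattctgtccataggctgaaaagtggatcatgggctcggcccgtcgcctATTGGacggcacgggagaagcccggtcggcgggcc

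The Mvk stretch held 5 CCAAT boxes on either strand, and its outermost pair lay at bases -173 to -169 and -14 to -10, counted back from the start. Hmgcs1 held 2, as did Idi1 and Fdps, while Mvd held 1 and Acat2 held 0 in the same window of 250 bases. At least 1 CCAAT box was thus found in 5 of the 6 enzymes, beside 34.0% of all 33469 rat promoters and 35.6% of the 9779 promoters of genes tested here. Fdps, whose level was not analysed, is among the 6 in each of these counts. The GC box GGGCGG was found in 5 of 6, beside 30.5% of all promoters and 59.1% of those of genes tested. Neither motif was particular to these enzymes. Among the lists described below, a CCAAT box was found in 7 of 9 promoters of lanosterol to cholesterol (77.8%) and 6 of 13 of the isoprenoid branch (46.2%). The GC box was found in 8 of 9 (88.9%) and 6 of 13 (46.2%) of them. The TATA box TATAAA was found in Hmgcs1 alone of the 6, beside 12.9% of all promoters and 5.9% of those of genes tested. The sterol element written strictly as TCACNCCAC was found in 0 of 6, beside 1.0% of all promoters and 0.9% of those of genes tested. All motifs were searched on both strands. In these 6 promoters no match of 1 motif overlapped a match of another, and a match is a description of these letters and not of binding.

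Acat2 and Hmgcs1 carry out the first steps. Acat2, the cytosolic thiolase that joins acetyl-CoA to acetoacetyl-CoA, had 166, 171 and 178 CPM in the Control samples and 86.4, 81.3 and 82.1 CPM in the STZ samples. This is a log2 fold change of -1.05 ± 0.05 (± gives the standard error wherever a log2 fold change is printed). The groups did not overlap, and the highest STZ sample lay at 51.9% of the lowest Control sample. Hmgcs1, the cytosolic HMG-CoA synthase, had 469, 486 and 489 CPM in Control and 239, 232 and 234 CPM in STZ. The log2 fold change was -1.03 ± 0.04, within the error of that of Acat2.

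Mvk, Pmvk and Mvd turn mevalonate into isopentenyl diphosphate. Mvk, mevalonate kinase, had 78.4, 77.6 and 74.9 CPM in Control and 35.3, 39.8 and 37.4 CPM in STZ, a log2 fold change of -1.04 ± 0.06. The groups did not overlap, and the highest STZ sample lay at 53.1% of the lowest Control sample. Pmvk, phosphomevalonate kinase, had 55.1, 57.9 and 60.8 CPM in Control and 45.8, 42.9 and 40.1 CPM in STZ. Its log2 fold change of -0.44 ± 0.06 was the smallest of the 8, and its groups came closest to each other, with the highest STZ sample at 83.0% of the lowest Control sample. Mvd, the decarboxylase that follows, had 138, 148 and 147 CPM in Control and 46.1, 48.5 and 44.5 CPM in STZ. Its log2 fold change of -1.64 ± 0.05 exceeded that of the next enzyme, Acat2, by 0.60 (standard error of the gap 0.07, with the estimates taken as independent). Pmvk and Mvd, which act one after the other, thus differed widely, although Fdft1 took the place of Pmvk as the smallest difference without Control replicate 1, Control replicate 2 or STZ replicate 1. Ordered from the lowest log2 fold change, Mvd was the 18th of 11870 genes tested, while 8.53% of the genes lay lower than Pmvk.

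Idi1, Fdft1 and Sqle carry the isoprene unit on to squalene and its epoxide. Idi1, the isomerase of isopentenyl diphosphate, had 118, 124 and 135 CPM in Control and 73.1, 68.2 and 69.8 CPM in STZ, a log2 fold change of -0.83 ± 0.05. Fdft1, squalene synthase, had 212, 223 and 208 CPM in Control and 158, 160 and 151 CPM in STZ. The log2 fold change of -0.46 ± 0.04 was close to that of Pmvk. Sqle, which oxidises squalene and is a main point of control of the sterol branch, had 353, 365 and 374 CPM in Control and 249, 252 and 235 CPM in STZ, a log2 fold change of -0.57 ± 0.04. In none of the 3 enzymes did the groups overlap. Fdft1 and Pmvk differed by 0.02 on the log2 scale, less than the standard error of that gap (0.07), and Acat2, Mvk and Hmgcs1 were likewise not separable. The gaps from Hmgcs1 to Idi1 (0.20, standard error 0.06) and from Idi1 to Sqle (0.26, standard error 0.06) were over 3 times their standard errors, and that from Sqle to Fdft1 was 0.12 ± 0.06.

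**Figure D1:**
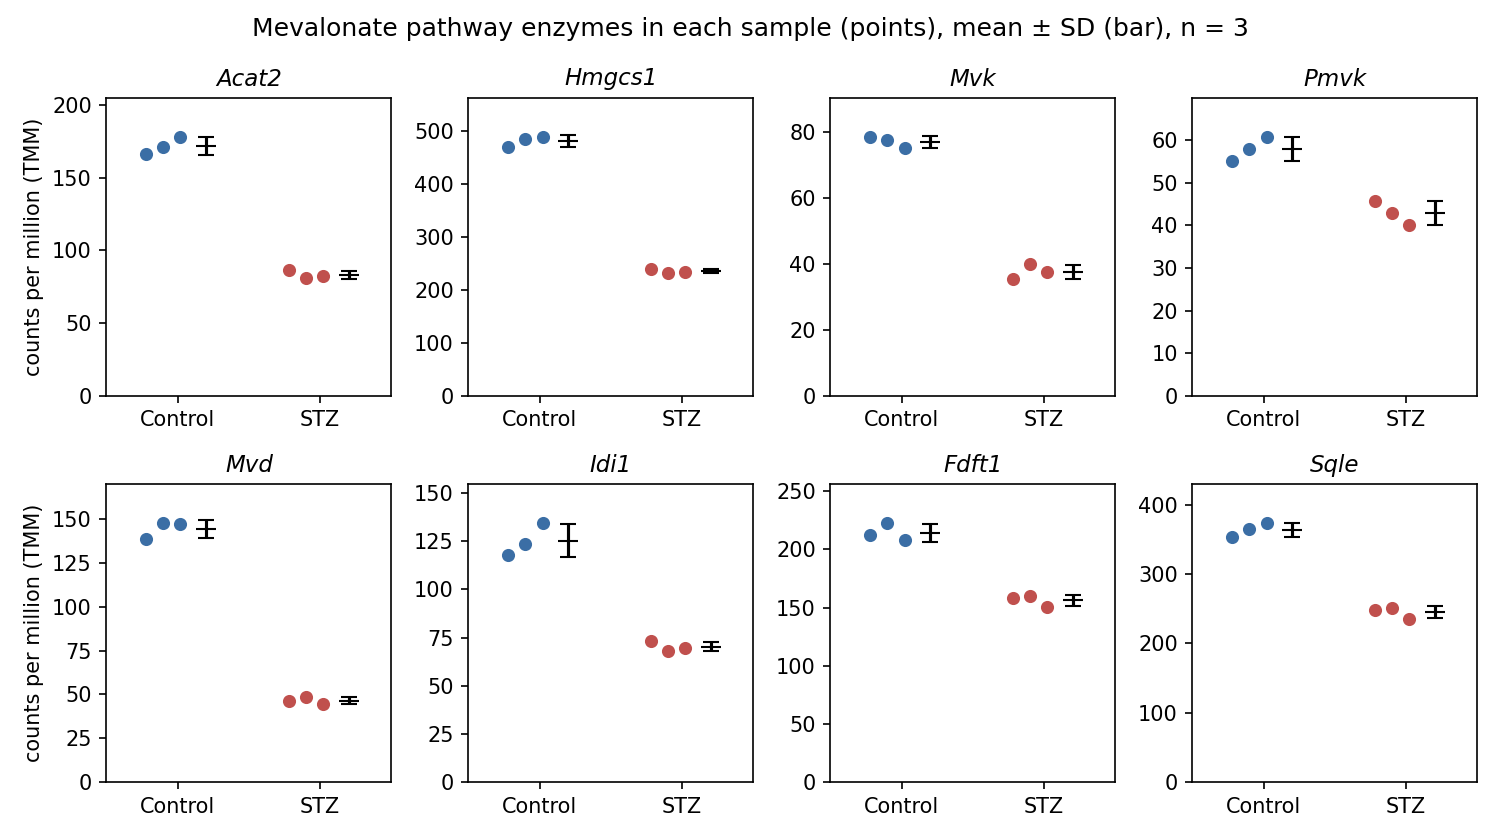
Levels of the 8 enzymes in CPM (y axes from 0, each with its own scale) in the 3 Control samples (blue) and the 3 STZ samples (red), with the mean and SD of each group in black. In every panel all STZ points lie below all Control points, and the highest STZ point as a percentage of the lowest Control point is smallest in Mvd and largest in Pmvk.

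**Figure D2:**
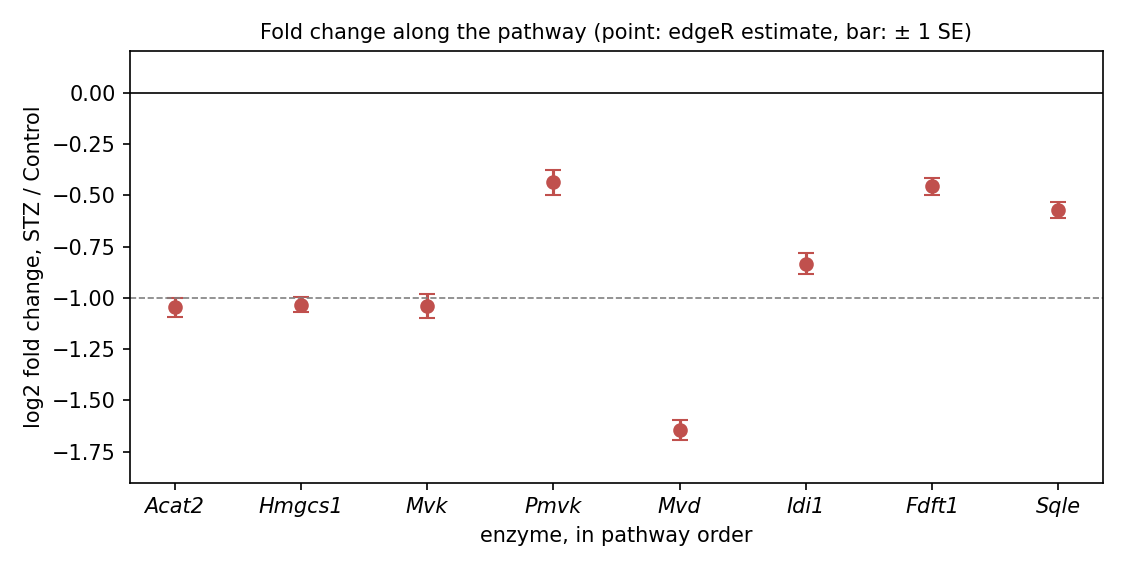
Log2 fold change of STZ over Control (y axis) for the 8 enzymes in pathway order (x axis), with bars of 1 standard error and a dashed line at -1. Mvd lies lowest at -1.64, Acat2, Hmgcs1 and Mvk lie just past the dashed line, and Pmvk, Fdft1 and Sqle lie between -0.57 and -0.44.

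In edgeR's quasi-likelihood fit over all genes, with p adjusted by Benjamini-Hochberg and a threshold of 0.05, 8 of the 8 enzymes were lower, beside 25.1% of the 11870 genes tested. With an absolute log2 fold change over 1 as well, 4 were lower (Acat2, Hmgcs1, Mvk and Mvd), beside 1.11% of all genes. Without STZ replicate 1 the count was 3, since the log2 fold change of Mvk became -0.996. All STZ samples lay below all Control samples in 8 of 8, beside 27.7% of all genes. Nothing is read from these counts, because the enzymes were chosen with the same comparison in view. The median log2 fold change of the 8 was -0.93, against -0.0055 for all genes tested.

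The balance between the enzymes also differed between the groups. As a share of the reads of the 8 enzymes, which is not corrected for gene length, Mvd took 8.83% ± 0.12 in Control and 5.06% ± 0.17 in STZ (SD, n = 3 each). Hmgcs1 took 29.4% ± 0.07 and 25.6% ± 0.58. The share of Sqle was 22.2% ± 0.16 in Control and 26.7% ± 0.50 in STZ, and that of Fdft1 was 13.1% ± 0.55 and 17.0% ± 0.21. Idi1 held 7.66% ± 0.36 in Control and 7.68% ± 0.26 in STZ, a difference smaller than the spread within either group. These shares restate the unequal fold changes and are no further evidence of them.

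Within a group, where the choice of the genes fixes nothing, the enzymes moved little beside their differences between the groups. Their deviations from the group mean, in log2 CPM, ran from -0.10 to 0.10. In STZ replicate 3, 0 of the 8 enzymes lay above the group mean, beside 51.2% of the 4845 genes at the level of the lowest enzyme or higher. In Control replicate 1, 1 of 8 lay above it (Mvk), beside 46.1% of those genes. In Control replicates 2 and 3 and STZ replicate 1 the count was 6 of 8, and in STZ replicate 2 it was 5 of 8. The mean deviation of the enzymes was -0.04 in both Control replicate 1 and STZ replicate 3 and between 0.01 and 0.03 in the other 4 samples. The SD over all those genes was 0.04 to 0.06. That SD is the spread of single genes, so it is no measure for a mean over 8. The 8 enzymes of a sample share 1 library and are not independent, so these counts have no test.

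**Figure D3:**
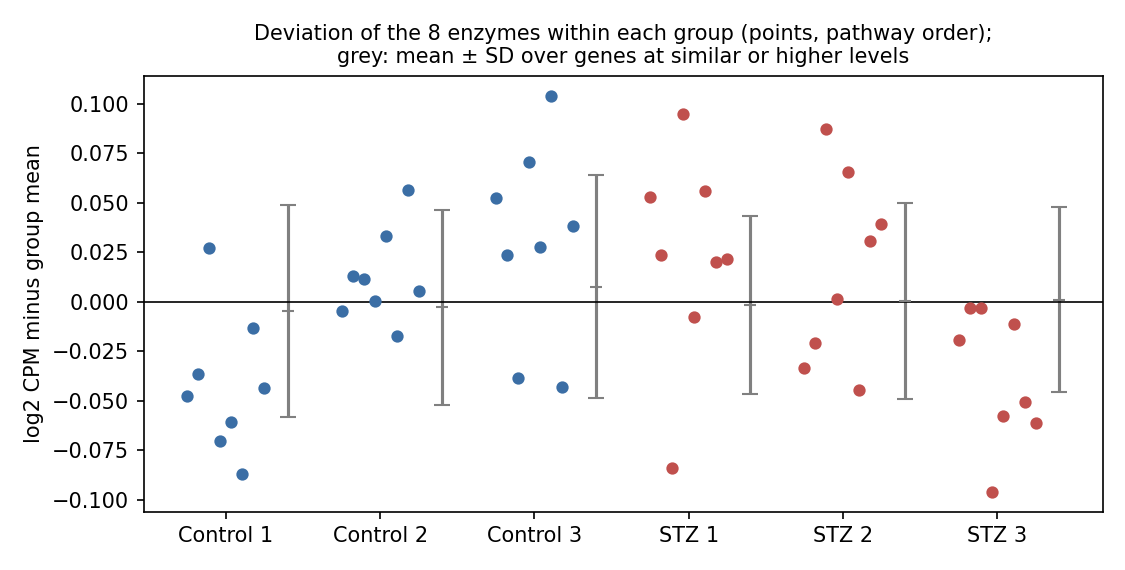
Deviation of each enzyme's log2 CPM from its group mean (y axis) in the 6 samples (x axis), with the enzymes as points in pathway order and, in grey, the mean and SD over 4845 genes at the level of the lowest enzyme or higher. All 8 points of STZ replicate 3 and 7 of 8 of Control replicate 1 lie below 0, and the points of the other samples lie on both sides.

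The enzymes after Sqle, which turn lanosterol into cholesterol, were set beside them from a list written with earlier results known. All 10 tested were lower at the same adjusted p-value, beside 25.1% of all genes. With a log2 fold change under -1 as well, the count was 3, Lss among them, beside 1.11% of all genes. The median of the 10 was -0.74. Lss, the cyclase that closes the sterol ring next after Sqle, had 125, 126 and 131 CPM in Control and 61.2, 63.2 and 58.6 CPM in STZ. Its log2 fold change was -1.06 ± 0.05, with an adjusted p of 4.3e-22 in edgeR. Lss thus lay below Sqle and Fdft1, its neighbours upstream, and near Acat2, Hmgcs1 and Mvk. Tm7sf2, a sterol reductase, had the largest fall, at -1.31 ± 0.10. The smallest was that of Msmo1, a sterol oxidase, at -0.42, and Cyp51, the lanosterol demethylase, had -0.69. These last 2 were picked after their values were seen.

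The branches that lead away from sterols formed a further list. Of 14 genes tested that make or use isoprenoids for ubiquinone, dolichol, tRNA or protein anchors, 1 was lower and 3 were higher by the same threshold. The other 10 missed it. Of all genes tested, 25.1% were lower and 25.9% higher, and nothing is read from these counts. The higher genes numbered 1 under DESeq2's Wald test and without STZ replicate 1 or 3, and the lower genes 2 without Control replicate 3. The median log2 fold change of the 14 was 0.0067 and turned to -0.027 when libraries were scaled by size only. Ggps1, which extends farnesyl diphosphate to the geranylgeranyl form, had 22.5, 20.4 and 23.6 CPM in Control and 21.3 to 22.0 CPM in the 3 STZ samples, so the groups overlapped. The log2 fold change of Ggps1 was -0.030 ± 0.083, with an adjusted p of 0.791 in edgeR. Dhdds, a subunit of the synthase that makes dolichol chains, was the gene that fell, by 0.37 on the log2 scale (± 0.04). Pggt1b, a subunit of a prenyl transferase, had the largest log2 fold change upward, 0.23 ± 0.08, with an adjusted p of 0.0122 in edgeR. It missed the threshold under DESeq2's Wald test (adjusted p = 0.052) and without Control replicate 1 (adjusted p = 0.0787), Control replicate 2, STZ replicate 1 or STZ replicate 3. Whether the response of these lists differs from that of the 8 enzymes was not tested as such.

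Of 13 genes tested for the control of SREBP and the uptake and handling of cholesterol, 6 were lower and 3 higher, with a median of -0.13. Beside these counts, 25.1% of all genes were lower and 25.9% higher. Srebf2, which encodes the SREBP that acts mainly on sterol genes, had 348, 334 and 338 CPM in Control and 280, 274 and 259 CPM in STZ. The log2 fold change of Srebf2 was -0.33 ± 0.04 (adjusted p = 1.7e-09 in edgeR), smaller in size than that of any of the 8 enzymes. Insig1, which holds SREBP back and is itself a target of SREBP, fell by 0.53 ± 0.04. The largest fall was that of Stard4, a sterol carrier, at -0.80 ± 0.05. Npc2, which carries cholesterol out of lysosomes, rose, with 420, 429 and 390 CPM in Control and 634, 616 and 612 CPM in STZ and a log2 fold change of 0.59 ± 0.04.

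Upstream of Acat2, the genes that supply acetyl-CoA in the cytosol formed another list, together with mitochondrial enzymes that make or use the same compounds. Of 6 genes tested, 5 were lower and 0 higher, beside 25.1% and 25.9% of all genes, with a median of -0.39. Acly, which splits citrate to acetyl-CoA, had 440, 442 and 476 CPM in Control and 266, 272 and 251 CPM in STZ, a log2 fold change of -0.78 ± 0.04. Acss2, which makes acetyl-CoA from acetate, had the largest fall, at -1.11 ± 0.07. Acat1, the mitochondrial thiolase, had 121, 114 and 99.7 CPM in Control and 97.9 to 103 CPM in the 3 STZ samples, so the groups overlapped. At -0.15 ± 0.05 (adjusted p = 0.0157 in edgeR), its log2 fold change stood against -1.05 for the cytosolic Acat2. That call was lost without Control replicate 1 (-0.09, adjusted p = 0.194 in edgeR), Control replicate 2 or STZ replicate 3.

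Genes of fatty acid synthesis, which SREBP also drives, were lower in most cases. Of 9 genes tested, 8 were lower and 1 higher, beside 25.1% and 25.9% of all genes, with a median of -0.72. Scd, a desaturase, had the largest fall, with 23.1, 26.6 and 31.0 CPM in Control and 12.3, 8.69 and 8.14 CPM in STZ and a log2 fold change of -1.48 ± 0.11. Fads1, another desaturase, fell by 1.05 on the log2 scale (± 0.04), and Fasn, the fatty acid synthase, picked after its value was seen, fell by 0.81 ± 0.05. Me1, a source of NADPH, was the gene that rose, at 0.21 ± 0.04. The medians of the lists of fatty acid synthesis and of lanosterol to cholesterol both lay above the -0.93 of the 8 enzymes, and the order of the medians was not tested.

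**Figure D4:**
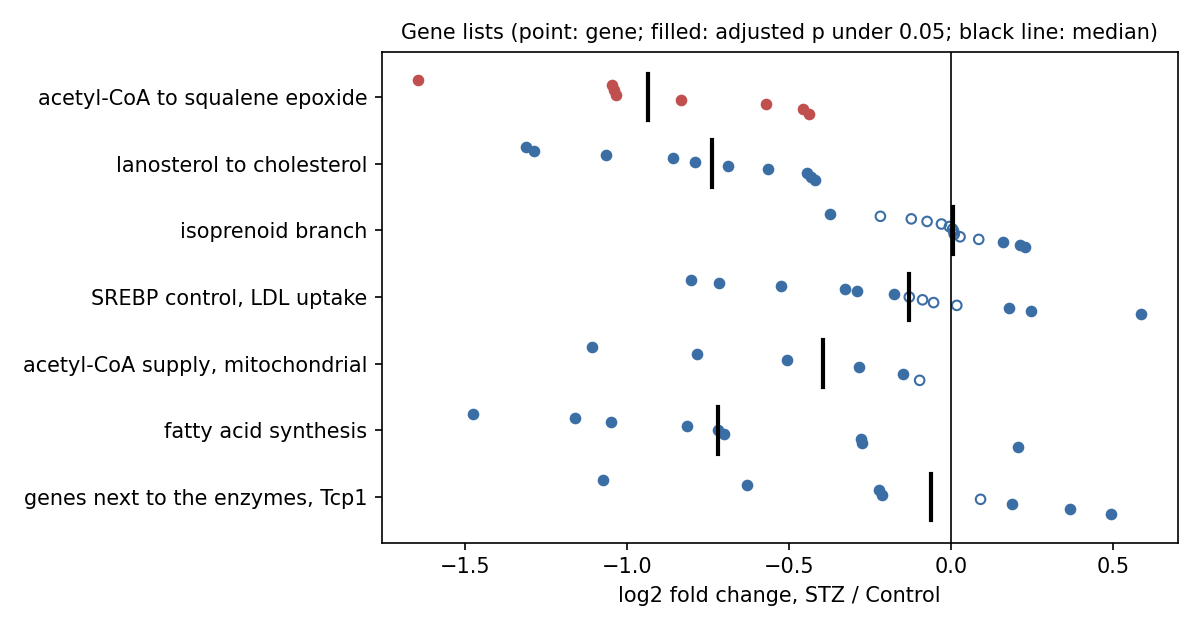
Log2 fold change of STZ over Control (x axis) for each gene tested in 7 lists (y axis), with the 8 enzymes in red, other lists in blue, genes past an adjusted p-value of 0.05 filled and the median of each list as a black line. The enzymes and the lists of lanosterol to cholesterol and of fatty acid synthesis lie mostly left of 0, while the isoprenoid branch centres near 0.

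Genes that lie next to the enzymes in the GRCr8 annotation, or overlap them, were looked at last, because reads of close genes may not be fully separated and whether counting used strand is not given in the sources used here. Of 7 such genes tested, 3 were lower and 3 higher, beside 25.1% and 25.9% of all genes. Mmab, which makes the cofactor adenosylcobalamin, starts on the other strand beside Mvk, and 247 of the 250 bases shown for Mvk are also those before the start of Mmab. Mmab had 22.5, 21.1 and 21.2 CPM in Control and 9.96, 11.4 and 9.61 CPM in STZ. The log2 fold change of Mmab was -1.07 ± 0.10 (adjusted p = 3.0e-12 in edgeR), against -1.04 for Mvk. Rusc1, an adaptor protein gene beside Fdps on the same strand, had the smallest p of these genes, with 519, 531 and 530 CPM in Control and 353, 339 and 329 CPM in STZ. At -0.63 ± 0.04, its log2 fold change lay between those of Idi1 and Sqle, and whether its row holds reads of Fdps was not tested. Wdr37, which overlaps the start of Idi1 on the other strand, had 22.8, 24.3 and 22.9 CPM in Control and 26.2, 26.8 and 26.9 CPM in STZ. The log2 fold change of 0.19 ± 0.08 had an adjusted p of 0.0361 in edgeR, but this call was lost with no filter, library size only, the upper quartile and DESeq2's Wald test (adjusted p of 0.061 to 0.118), and in 5 of the 6 fits that left out a sample, all but that without Control replicate 2. Ctsb, a lysosomal protease beside Fdft1, rose by 0.49 ± 0.03. Tcp1, a chaperonin subunit that was set by name and is not next to an enzyme in GRCr8, fell by 0.21 ± 0.05, and with it the list counts 8 genes tested and 4 lower. Long non-coding RNA genes that overlap Acat2, Hmgcs1 and Fdft1 were not matched to a row.

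The total counts were 10430924 to 15191349 per sample, and the 8 enzymes took 0.162% to 0.168% of them in Control and 0.0882% to 0.0922% in STZ. Markers of epithelial cells had a summed level of 1105 to 1180 CPM in Control and 1599 to 1615 CPM in STZ over 4 of their 5 genes. Nearly all of it was Krt8. Krt18 and Cldn4 did not exceed 4 reads in a sample, and Cdh1 had at most 3.02 CPM. Of 5 proximal tubule markers, Lrp2, Slc34a1, Slc5a2 and Cubn did not exceed 10 reads in a sample, and the summed level was 9.83 to 16.5 CPM in Control and 5.74 to 6.83 CPM in STZ, carried by Aqp1. Fibroblast markers summed to 46.8 to 52.4 CPM in Control and 36.9 to 43.5 CPM in STZ over 4 of 5 genes, carried by Col1a1 and Pdgfrb. Endothelial markers summed to at most 0.782 CPM and leukocyte markers to at most 2.40 CPM in any sample. Of the markers tested, Krt8 was higher, and Aqp1, Cdh1, Col1a1 and Pdgfrb were lower; their part in the results was not tested.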

How the data were processed

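RNA of Control and STZ-treated NRK-52E cells was sequenced from stranded mRNA libraries as single-end reads. STAR 2.7.10a was used by the authors to map reads to Rnor6, and featureCounts of the Subread package to count those mapped uniquely. The authors deposited raw counts, 1 column per sample, named as the sample titles. The annotation release and the strand setting are not given in the sources used here. The table lists 18930 genes, of which 2871 carry an Ensembl identifier in place of a symbol.

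Counts were scaled by TMM, filtered by filterByExpr at its defaults and compared by the quasi-likelihood test of edgeR 4.0.16 (R 4.3.3), with Benjamini-Hochberg adjustment over the 11870 genes tested. The thresholds were an adjusted p-value under 0.05 and, for differential expression, an absolute log2 fold change over 1. The standard error of a log2 fold change is its size over the root of the F statistic. It draws on the spread of all genes tested and not only on that of the gene itself. The fit was tested on simulated counts. No permutation test of a single gene is given, since 3 samples against 3 cannot reach an exact two-sided p under 0.1.

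The enzymes and all lists were chosen with earlier results of these data known. The genes named are the enzymes, the largest fall, largest rise and smallest p of each list, and genes set by name or by overlap; others are marked. Some single genes enter the counts without their values being reported here. Promoter sequences came from RefSeq (GRCr8). Apart from these stretches no coordinates are given, because the counts rest on another build.

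The alternatives were 2 other filters, 3 other scalings, DESeq2 1.42.0, limma-voom (limma 3.58.1), a block on the replicate number, and leaving out each of the 6 samples.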

Additional observations from a re-analysis of the deposited data

How the results depend on the processing

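The 8 enzymes stayed lower at an adjusted p-value under 0.05 under every alternative run, and in 111 of 112 refits of a single enzyme the log2 fold change moved by no more than the spread between replicates. Their median log2 fold change, -0.93, was -0.95 to -0.90 when a sample was left out, and their summed level in STZ was 55.2% to 56.8% of Control. Of 336 refits of 24 other genes, 318 kept direction and side of the threshold, 17 lost the call and 1 turned, that of Ggps1, at -0.087 to 0.022 over the fits without 1 sample and above 0 without Control replicate 3. The number of genes past both thresholds, 400, fell to 249 when every sample had to reach 10 counts, which tests fewer genes, was 585 with no filter, and ranged over 403 to 462 on leaving out a sample. In the isoprenoid branch, 3 genes were higher, but 1 under DESeq2's Wald test and 1 to 3 with one sample left out (1 without STZ replicate 1 or 3), while 1 to 2 were lower (2 without Control replicate 3); the cause was not tested. Its median turned to -0.027 with library size only. The median of the genes of SREBP control was -0.18 with no filter, -0.16 with library size only and -0.19 to -0.11 on leaving out a sample, and that of acetyl-CoA supply was -0.51 with no filter. The median of the neighbouring genes with Tcp1 was -0.22 with no filter, -0.095 with library size only, -0.081 with the upper quartile and -0.081 to -0.034 on leaving out a sample, smallest in size without Control replicate 3 and next without STZ replicate 2 (-0.037), against -0.062 with all samples and 0.091 when Tcp1 is left out, a choice made after seeing the data. The settings with no filter add genes with few reads.

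Control and STZ samples share replicate numbers, and the labels do not say whether same-numbered samples were handled together. The deviations of same-numbered samples from their group means had correlations of 0.04, -0.02 and 0.12 over 9989 genes. Such correlations cannot settle whether the samples were paired. Under the replicate block, 398 genes passed both thresholds, 8 of the 8 enzymes were lower, and their median was -0.93.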
